A study of Drosophila melanogaster with 19 samples.

Results

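The octopamine and tyramine receptors of Drosophila melanogaster are described here across neurons sorted from the optic lobe, where the fly brain processes visual input. The family was taken by name from the count table, and all 8 of its named genes were found among 17558 gene rows. They are Oamb, Octbeta1R, Octbeta2R, Octbeta3R, Octalpha2R, Oct-TyrR, TyrR and TyrRII. RNA was sequenced from adults aged 3 to 6 days. Each cell type had a Gal4 driver line of its own that drove UAS-Red Stinger, a red fluorescent protein held in the nucleus, and labelled cells were sorted from dissociated brains, so each group stands for the cells that its driver marks. The groups were 17 single neuron types, a mixture of T1 and Tm1, and neurons sorted as a whole. The single types were the feedback neurons C3, C2, Lawf1 and Lawf2, the medulla neurons Mi1, Dm12, Dm8 and Dm2, the transmedullary neurons Tm9, Tm5ab, Tm5c, Tm3 and Tm2, and the T neurons T5, T3, T2 and T1. Every group had 3 numbered libraries, 57 in all. No group was treated or mutant, and the labels give no genotype other than the drivers and the reporter.

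Octopamine and tyramine are the invertebrate counterparts of adrenaline and noradrenaline. Tyramine is made from tyrosine and is converted to octopamine by the hydroxylase Tbh, and in flies octopamine is released in the optic lobe during walking and flight, when responses of motion-sensitive neurons increase. All of the receptors are G protein-coupled. Oamb resembles vertebrate alpha-1 adrenergic receptors and raises intracellular calcium, Octbeta1R, Octbeta2R and Octbeta3R resemble beta-adrenergic receptors and raise cAMP in cultured cells, and Octalpha2R resembles alpha-2 adrenergic receptors and lowers cAMP. Oct-TyrR responds to both amines, TyrR is selective for tyramine, and TyrRII responds to several amines.

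In Ensembl's annotation of BDGP6, Oct-TyrR (FBgn0004514) lies on chromosome arm 3L from 22035003 to 22065279, and the other 7 genes lie on 3R. Oamb (FBgn0024944) spans 20689018 to 20714577, Octbeta1R (FBgn0038980) 22497215 to 22520078, and Octalpha2R (FBgn0038653) 18799280 to 18849224. Octbeta3R (FBgn0250910, 12511570 to 12548229) and Octbeta2R (FBgn0038063, 12550625 to 12595725) are neighbours on the minus strand with 2395 bases between them. TyrRII (FBgn0038541, 17736611 to 17747470, plus strand) and TyrR (FBgn0038542, 17750129 to 17763188, minus strand) point towards each other across 2658 bases. The library kits do not mark strand, and only Octbeta2R shares exon bases with another gene, 1.33% of them, with mir-284 on the same strand.

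Reads in genes ranged from 0.602 to 72.677 M (M, mega) per library, with a median of 21.76 M. The 3 T2 libraries stood apart, with 9.44, 2.53 and 0.602 M reads. Their TMM factors, which scale library size, were 0.485, 0.548 and 0.697, against 0.777 to 1.272 in the other libraries. Low factors raise the scaled levels in T2. In T2 the median log2 fold change of all genes against the other types was -1.26, with -2.07 in the fifth of genes with the shortest exons and 0.58 in the fifth with the longest. Calls in T2 are therefore also given with a trend on exon length subtracted. Type markers are given here for Mi1, Lawf1, Lawf2, C3 and C2 only. The homeobox gene bsh stood at 649 CPM (read counts per mega of TMM-scaled reads) in Mi1 and at most 3.14 CPM in the other single types. The marker eya stood at 266 CPM in Lawf1 and 271 CPM in Lawf2, and the GABA synthesis gene Gad1 at 13280 CPM in C3 and 3915 CPM in C2. How far eya and Gad1 were limited to these types is not shown here. The synaptic gene brp stood at 18.02 CPM in T1. The summed level of 4 neuron markers, brp among them, was 3894 to 4046 CPM in the T1 libraries. In T3, the type with the next lowest mean sum, it was 4289 to 4779 CPM. Summed levels of 3 tracheal markers reached 118 to 230.0 CPM in the libraries of C3, C2, Lawf2, Tm5ab and Tm5c and at most 93.6 CPM elsewhere, and those of 4 hemocyte markers had their highest mean among the single types in Mi1, at 614 to 693 CPM. The part of these cells in the receptor levels was not tested.

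Each neuron type had its own mix of receptors, and the level of each receptor varied between types. Octbeta2R reached a mean of 100 CPM in 13 of the 17 types, whereas TyrRII reached it in none. Oamb and Octalpha2R had a mean of at least 1 CPM in all 17 types, while each of the other receptors fell under 1 CPM in some type. All 8 genes passed the filter on low counts, and all 8 varied between the 17 types in the F test of edgeR's quasi-likelihood fit, with Benjamini-Hochberg adjusted p from 3.91e-34 for Octbeta2R to 8.26e-12 for TyrRII. The same test called 91.6% of the 12569 genes tested, and the receptors' share is read against that background. The width of the variation was larger: the range of log2(mean CPM + 1) over the types had a median of 9.23 for the 8 receptors, 7.95 for the 9 other monoamine receptors and 2.55 for all genes tested. Since GEO lists 1 sample per group, the p-values rest only on spread between libraries of a sample, and that spread may be technical. The fit pools it over all groups for each gene, so a p-value does not measure the spread in the compared types alone. In bulk RNA of sorted cells, a low level cannot tell fewer expressing cells from less RNA in each cell.

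**Figure D1:**
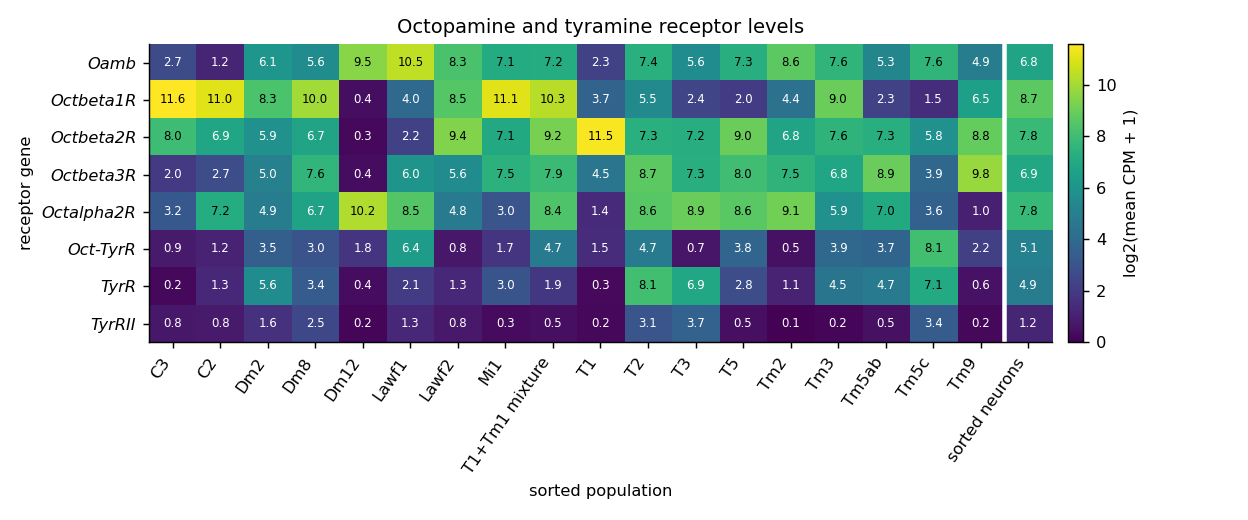
Level of each receptor gene (rows) in each sorted population (columns), as log2 of the mean CPM of 3 libraries plus 1, with the value printed in each cell and sorted neurons to the right of the white line. Octbeta1R is highest in C3, Octbeta2R in T1, and the 3 Octbeta genes are all near 0 in Dm12.

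A level of 10 CPM was used as a descriptive limit. Octbeta2R reached it in 15 of the 17 types, Oamb and Octbeta3R in 14 each, Octalpha2R in 13, Octbeta1R in 12, Oct-TyrR in 7, TyrR in 6 and TyrRII in 1. Each type was then set against the geometric mean of the other 16, calling a gene at an adjusted p under 0.05 and a log2 fold change of at least 1 in either direction. Of the 136 receptor-by-type tests, 54 (39.7%) were higher and 41 (30.2%) were lower, beside 15.5% and 6.24% for all genes over the same 17 comparisons. The geometric mean is low for a gene that is near 0 in many types, so a type can be called higher and still lie below the arithmetic mean CPM of the other 16. That was so in 20 of the 54 calls, 4 each of Oamb and Oct-TyrR, 3 each of Octbeta1R and Octbeta3R, 2 each of Octalpha2R and TyrR and 1 each of Octbeta2R and TyrRII. The reverse cannot occur for a type called lower, since the geometric mean never exceeds the arithmetic mean.

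Octbeta1R, a receptor that raises cAMP, was highest in C3, Mi1, C2 and Dm8. It had 2921, 3251 and 3055 CPM in the C3 libraries, 2146, 2127 and 2112 CPM in Mi1, 2075, 2015 and 2122 CPM in C2, and 1169, 1011 and 820 CPM in Dm8. The C3 libraries lay above all others, and those of Mi1 and C2 overlapped. Tm3 followed with 510.2 ± 6.9 CPM (SD, n = 3 libraries), Lawf2 with 367 ± 28 CPM, Dm2 with 314 ± 26 CPM, Tm9 with 91.4 ± 36 CPM and T2 with 44.2 ± 17.6 CPM, and the libraries of each of these lay apart from those of its neighbours in that order. From Tm2, at 19.97 ± 5.6 CPM, downwards every type overlapped with the next. Dm12 was lowest, with 0.439, 0.612 and 0.0444 CPM.

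Octbeta1R was higher in 7 types and lower in 8 than the geometric mean of the rest. Of the 7, Tm3, Lawf2 and Dm2 lay below the arithmetic mean of the rest, with 510.2 CPM in Tm3 against 572 CPM, 367 CPM in Lawf2 against 581 CPM and 314 CPM in Dm2 against 584 CPM. The log2 fold change was 6.18 ± 0.23 (SE) in C3 (edgeR adjusted p = 2.35e-24), 5.62 ± 0.24 in Mi1 (adjusted p = 1.44e-22) and 5.57 ± 0.24 in C2 (adjusted p = 1.90e-22). It was -7.64 ± 0.73 in Dm12 (adjusted p = 2.27e-11). C3 and C2 send feedback from the medulla towards the lamina and use GABA as their transmitter, and Mi1 carries signals of light increments to the motion pathway.

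Octbeta2R, the second receptor that raises cAMP, was concentrated in T1, a type with its processes in the lamina and medulla. It had 2812, 2845 and 2904 CPM in the T1 libraries. Lawf2 came next with 733, 686 and 603 CPM, so that the T1 mean was 4.23 times that of the runner-up. T5, which detects the motion of dark edges, had 503 ± 45 CPM and Tm9, an input of T5, had 456 ± 115.2 CPM, and the libraries of these overlapped. The log2 fold change against the other types was 5.03 ± 0.11 in T1 (edgeR adjusted p = 1.26e-37), 2.82 ± 0.13 in Lawf2 (adjusted p = 7.40e-24), 2.37 ± 0.13 in T5 (adjusted p = 4.30e-20) and 2.22 ± 0.14 in Tm9 (adjusted p = 1.14e-18).

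Most other types held Octbeta2R at intermediate levels, from 56.4 ± 7.4 CPM in Tm5c to 253 ± 23 CPM in C3. Lawf1 and Dm12 did not: Lawf1 had 2.82, 4.89 and 3.52 CPM, and Dm12 had 0, 0.131 and 0.444 CPM, where 3 reads over the group correspond to 0.0426 CPM. Both were lower than the other types, by a log2 fold change of -5.15 ± 0.27 in Lawf1 (edgeR adjusted p = 3.75e-22) and -9.70 ± 0.36 in Dm12 (adjusted p = 4.12e-27). Beside the T1 result, the summed level of 9 glia markers was 28830 to 37420 CPM in the T1 libraries, against 75.1 to 1158 CPM in those of the other types. Nearly all of it was the glutamate transporter gene Eaat1, at 32110 CPM in T1, while the glial identity gene repo stood at 3.75 CPM in T1 and at 1.51 to 10.4 CPM in the other types, and 1 of the 9 markers was at 0 in T1. Its part in the Octbeta2R level was not tested.

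Octbeta3R, the last receptor of the beta group, was highest in Tm9, with 714, 891 and 1055 CPM. Tm5ab followed with 535, 497 and 441 CPM, all below the Tm9 libraries, and T2 with 640.2, 291 and 281 CPM. From Tm5ab down to Tm3, at 112 ± 31 CPM, each type overlapped with the next. The log2 fold change was 4.20 ± 0.18 in Tm9 (edgeR adjusted p = 4.42e-24), 3.29 ± 0.19 in Tm5ab (adjusted p = 7.37e-19) and 3.01 ± 0.21 in T2 (adjusted p = 1.63e-17), and in T2 it was 2.56 after the trend on exon length was subtracted. At the low end were C2 with 5.70 ± 3.6 CPM, C3 with 2.92 ± 1.7 CPM and Dm12 with 0.3195, 0.262 and 0.310 CPM. All 3 were lower than the other types, with log2 fold changes of -3.55 in C2, -4.57 in C3 and -8.04 in Dm12.

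**Figure D2:**
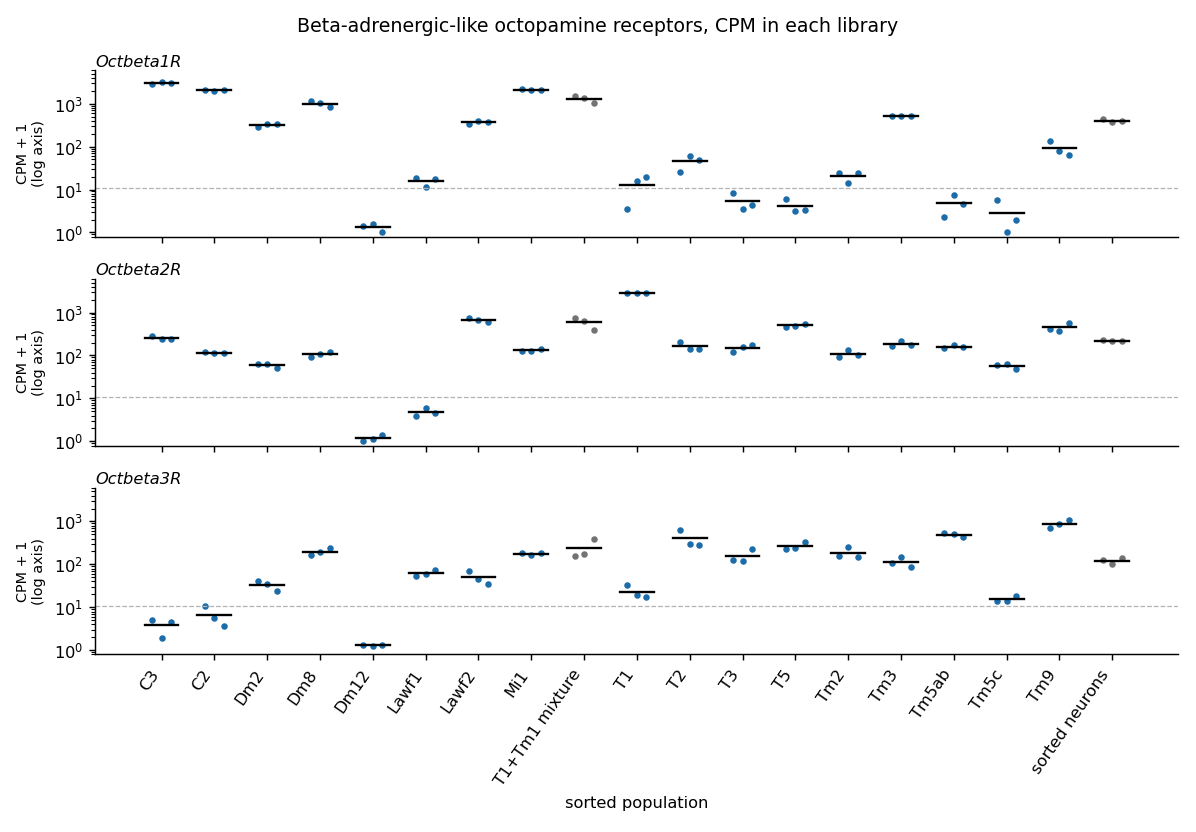
CPM plus 1 of the 3 beta-adrenergic-like receptor genes in each library (points, log axis) with the group mean (black line) for 19 sorted populations; the dashed line marks 10 CPM, and the T1 and Tm1 mixture and sorted neurons are grey. The highest group is C3 for Octbeta1R, T1 for Octbeta2R and Tm9 for Octbeta3R, and Dm12 lies under 1 CPM in all 3.

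The neighbouring genes Octbeta2R and Octbeta3R were thus highest in different types. Over the 17 types, the Pearson correlation of their log2(CPM + 1) was 0.40, and over all pairs of receptors it ran from -0.57 for Oamb and Octbeta2R to 0.78 for TyrR and TyrRII, the other neighbouring pair. The points of these correlations share libraries and depth, so they are given as a description.

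Oamb, the calcium-raising receptor, was highest in Lawf1, a wide-field feedback type of the lamina, with 1502, 1356 and 1445 CPM. Dm12 followed with 668, 746 and 832 CPM, and then Tm2 with 485, 260 and 455 CPM and Lawf2 with 359, 247 and 314 CPM. Lawf1 and Dm12 lay apart from each other and from all types below, whereas Tm2 and Lawf2 overlapped. The log2 fold change was 4.52 ± 0.19 in Lawf1 (edgeR adjusted p = 6.42e-25), 3.52 ± 0.20 in Dm12 (adjusted p = 2.70e-19), 2.56 ± 0.22 in Tm2 (adjusted p = 2.39e-13) and 2.15 ± 0.23 in Lawf2 (adjusted p = 1.10e-10). Only 3 types were under 10 CPM: C3 with 5.37 ± 0.62 CPM, T1 with 3.84 ± 2.5 CPM and C2 with 1.31 ± 1.1 CPM. These are the types with the highest Octbeta2R (T1) and with 2 of the 3 highest levels of Octbeta1R (C3 and C2).

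Octalpha2R, the cAMP-lowering receptor, was highest in Dm12, with 1201, 1106 and 1202 CPM, at a log2 fold change of 4.57 ± 0.14 (edgeR adjusted p = 3.79e-31). Below it came a group of types that overlapped step by step: Tm2 with 548 ± 43 CPM, T3 with 488 ± 49 CPM, T5 with 389 ± 56 CPM, T2 with 379 ± 79 CPM and Lawf1 with 355 ± 49 CPM. These 5 were also higher than the other types, with log2 fold changes of 3.41 in Tm2, 3.23 in T3, 2.88 in T5, 2.85 in T2 and 2.74 in Lawf1. In T2 the value fell to 1.80 once the trend on exon length was subtracted. At the low end were T1, with 0.293, 1.24 and 3.18 CPM, and Tm9, with 0.878, 1.26 and 0.902 CPM. Their log2 fold changes were -5.55 ± 0.34 in T1 (adjusted p = 2.83e-19) and -6.25 ± 0.36 in Tm9 (adjusted p = 8.04e-20).

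The receptors that respond to tyramine were found in fewer types. Oct-TyrR was highest in Tm5c, a type of the colour pathway, with 355, 237.6 and 218 CPM, and next in Lawf1, with 82.1, 104 and 68.1 CPM. The Tm5c libraries lay above all others. Against the other types, the difference was a log2 fold change of 6.17 ± 0.34 in Tm5c (edgeR adjusted p = 7.52e-19) and 4.39 ± 0.37 in Lawf1 (adjusted p = 1.78e-13). The next in rank, T2, rested on a single shallow library, since the 3 libraries had 6.12, 0 and 71.5 CPM. Its log2 fold change of 1.87 ± 0.77 (adjusted p = 0.0358) was -0.29 without library 3 (adjusted p = 0.946).

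TyrR, the tyramine receptor, had 308, 257 and 253 CPM in T2, 157, 150.3 and 101 CPM in Tm5c, and 161, 120.0 and 80.4 CPM in T3. On this TMM-scaled level the T2 libraries lay above all others, and those of Tm5c and T3 overlapped. Before scaling, TyrR had 1407, 357 and 106 reads in T2, of 9.44, 2.53 and 0.602 M in genes. Tm5c had 1546, 2749 and 2087 reads of 9.94, 16.41 and 17.89 M, and T3 had 4220, 2681 and 2053 reads of 23.05, 19.67 and 21.99 M. As shares of these reads, the T2 libraries did not lie above all others. Log2 fold changes of TyrR were 6.03 ± 0.44 in T2 (edgeR adjusted p = 1.34e-15), 4.96 ± 0.43 in Tm5c (adjusted p = 1.92e-12) and 4.77 ± 0.43 in T3 (adjusted p = 8.05e-12), and in T2 it was 5.72 with the trend on exon length subtracted. Dm2, Tm5ab and Tm3 held TyrR at 48.9 ± 17, 25.6 ± 13 and 21.7 ± 1.1 CPM. In C3 it had 0.529, 0 and 0 CPM.

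TyrRII was the scarcest of the family. It had 14.96, 11.4 and 8.62 CPM in T3, 6.10, 10.9 and 10.8 CPM in Tm5c, and 1.09, 11.5 and 9.53 CPM in T2. These 3 types, the same that led for TyrR, overlapped with each other, and no type lay apart from its neighbours in rank. Their log2 fold changes were 4.17 ± 0.42 in T3 (edgeR adjusted p = 1.65e-11), 3.83 ± 0.43 in Tm5c (adjusted p = 3.84e-10) and 3.37 ± 0.60 in T2 (adjusted p = 2.94e-06). In 11 of the 17 types the mean was under 1 CPM.

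**Figure D3:**
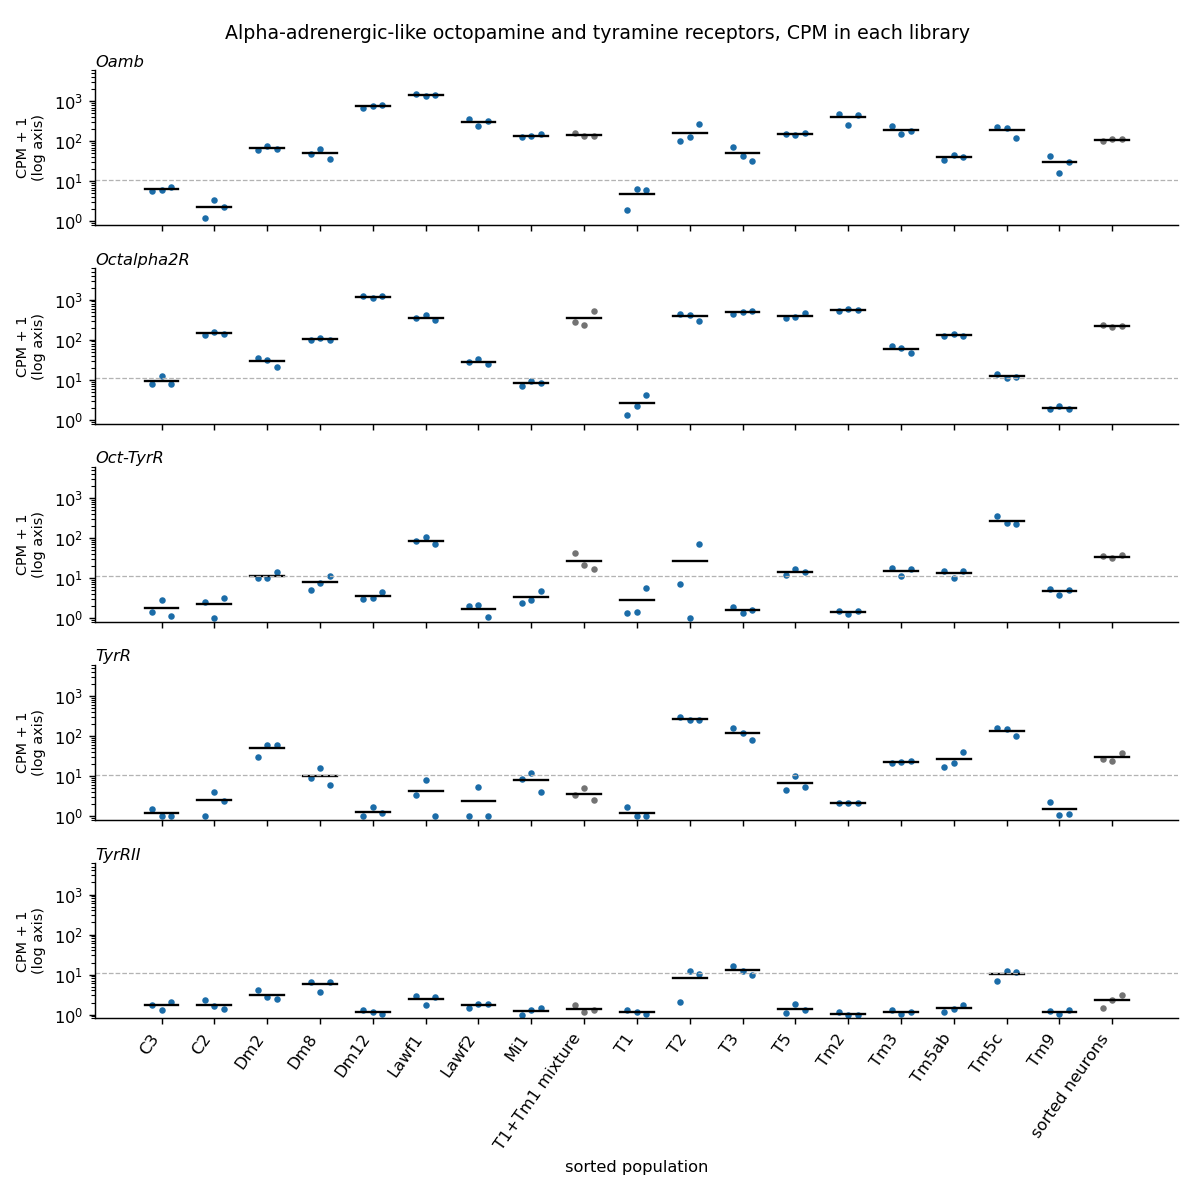
CPM plus 1 of Oamb, Octalpha2R, Oct-TyrR, TyrR and TyrRII in each library (points, log axis) with the group mean (black line) for 19 sorted populations; the dashed line marks 10 CPM, and the T1 and Tm1 mixture and sorted neurons are grey. Lawf1 leads for Oamb, Dm12 for Octalpha2R and Tm5c for Oct-TyrR, and the T2 point of 71.5 CPM for Oct-TyrR stands far above the other 2 T2 libraries.

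To compare receptors within a type, CPM was divided by the length of each gene's exons. The number of receptors at or above 10 CPM ran from 2 in C3 and Dm12 to 7 in Dm2, T2 and Tm3, with a median of 5. The first receptor per kb was Octbeta1R in 6 types (C3, C2, Mi1, Dm8, Dm2 and Tm3), Oamb in 3 (Lawf1, Dm12 and Tm2), Octbeta2R in 3 (T1, Lawf2 and T5), Octbeta3R in 3 (Tm9, Tm5ab and T2), Octalpha2R in T3 and Oct-TyrR in Tm5c. With coding length in place of exon length, a choice made after the data were seen, the first receptor was the same in 13 of 17 types. It then was Octalpha2R in Dm12, Tm2 and T2 and Octbeta2R in Tm9.

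Some types were dominated by a single receptor and others were not. Octbeta2R made up 98.1% of the summed level per kb of the 8 receptors in T1, and Octbeta1R made up 94.0% in C3, 92.3% in C2, 84.2% in Mi1 and 72.5% in Dm8. In Dm12 the sum was split between Oamb, at 53.0%, and Octalpha2R, at 46.7%, and the 3 Octbeta genes together gave 0.0555%. With coding length the order in Dm12 turned, to 30.1% for Oamb and 69.6% for Octalpha2R. Oamb made up 77.9% in Lawf1. The 3 tyramine-responsive genes together gave 68.7% in Tm5c, 26.2% in T2 and 19.1% in T3. T2 had the most even make-up, with its first receptor, Octbeta3R, at 29.8%. With coding length Octbeta3R stood at 17.8% in T2 and Octalpha2R came first at 28.3%.

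**Figure D4:**
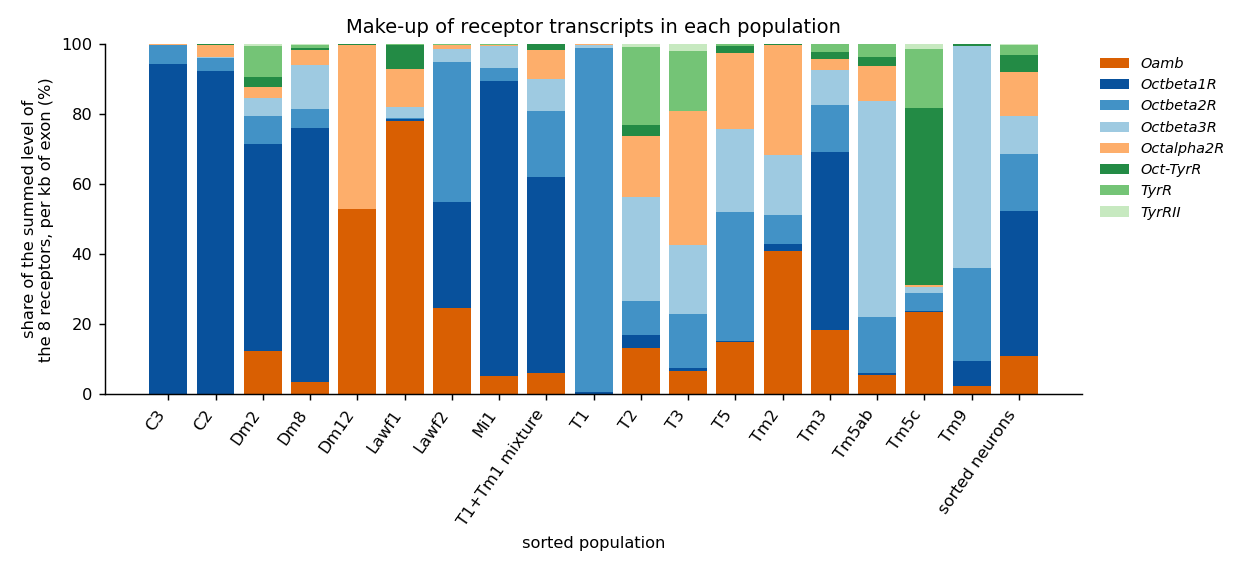
Share of each receptor gene in the summed level of the 8 genes per kb of exon, in percent, for 19 sorted populations (bars, from the mean of 3 libraries). T1 is almost all Octbeta2R (98.1%), C3 and C2 are mostly Octbeta1R (94.0% and 92.3%), and Dm12 is Oamb (53.0%) and Octalpha2R (46.7%), an order that turned with coding length.

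Tests of single types against the rest are counted next. In T1, 1 receptor was higher and 6 were lower than the other types, where 13.7% and 10.4% of all genes were called. TyrRII was the weakest of the 6, and its call was lost without T1 library 2 (adjusted p = 0.0774) or 3 (adjusted p = 0.147). The T1 value of TyrR, -4.78 with all libraries, was -7.87 without library 1. In Dm12, 2 receptors were higher and 5 lower, beside 10.6% and 5.22% of all genes. There too the call of TyrRII was lost, without library 2 (adjusted p = 0.120) or 3 (adjusted p = 0.173). In C3, 2 were higher and 5 lower, beside 18.2% and 4.81%, and TyrR had reads only in library 1, while the value of Oct-TyrR, -2.75, was -4.34 without library 2. In T2, 6 were higher and none lower by edgeR, beside 21.5% and 29.4%, and 4 were higher without library 3, when Oamb also lost its call at a log2 fold change of 0.50 (adjusted p = 0.202). At an unadjusted p under 0.05, 0 were lower, and DESeq2 also called 0 lower. With the length trend subtracted, the 6 values were 0.81 for Oamb, 2.56 for Octbeta3R, 1.80 for Octalpha2R, 2.27 for Oct-TyrR, 5.72 for TyrR and 3.43 for TyrRII.

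In the other types, the counts were as follows. Lawf1 had 3 receptors higher and 2 lower, beside 29.5% and 7.94% of all genes, and Lawf2 had 3 higher and 2 lower, beside 20.3% and 4.73%. C2 had 2 higher and 3 lower, beside 23.7% and 6.21%, and the call of Oct-TyrR there was lost without library 2 (-1.50, adjusted p = 0.105). Mi1 had 2 higher and 1 lower, beside 10.4% and 3.81%. Dm8 had 3 higher and none lower by edgeR, beside 11.8% and 3.44%, with 1 lower at an unadjusted p under 0.05 and 0 lower by DESeq2. Dm2 had 3 higher and 1 lower, beside 11.3% and 2.94%, and there the calls of TyrRII, without library 1 (1.13, adjusted p = 0.265) or 2 (1.69, adjusted p = 0.0580), and of Octalpha2R, without library 3 (-0.94), were lost. Octalpha2R then kept its adjusted p (0.0118) and fell under the fold limit only, as it did without the T2 libraries (-0.99).

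T3 had 4 receptors higher and 2 lower, beside 10.3% and 3.81%, and T5 had 5 higher and 1 lower, beside 16% and 7.82%, where Oct-TyrR lost its call without library 2 (1.37, adjusted p = 0.0729) and by DESeq2 (1.42, adjusted p = 0.0769). Tm5c had 4 higher and 3 lower, beside 21.2% and 3.55%, and Tm5ab had 4 higher and 1 lower, beside 14.7% and 1.86%, where Oct-TyrR lost its call without library 1 (1.32, adjusted p = 0.121) or 3 (1.32, adjusted p = 0.118) and by DESeq2 (1.35, adjusted p = 0.141). Tm9 had 2 higher and 4 lower, beside 9.96% and 2.93%. Of the 4, TyrR lost its call without library 2 (-3.06, adjusted p = 0.0540) or 3 (-3.06, adjusted p = 0.0533) and was -6.01 without library 1, and TyrRII lost it without any of the 3 libraries (adjusted p = 0.0790 to 0.234). Tm2 had 3 higher and 4 lower, beside 8.89% and 4.98%, where TyrR lost its call without any library (adjusted p = 0.130 to 0.135) and Octbeta1R without library 2 (-1.33, adjusted p = 0.0737), and where TyrRII had reads only in library 1. Tm3 had 5 higher and 1 lower, beside 11.1% and 2.16%, and the calls of Oct-TyrR (adjusted p of at most 0.0606), Octbeta3R (0.80, adjusted p = 0.0514) and TyrRII (adjusted p of at most 0.156) were lost without some library. DESeq2 called 3 receptors higher in Tm3: TyrR (2.14, adjusted p = 0.0728) and Oct-TyrR (1.60, adjusted p = 0.0653) lost their calls there.

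Types that share a name stem differed in their receptors. Lawf1 and Lawf2 are both wide-field neurons that feed back to the lamina. Lawf1 was higher than Lawf2 for 3 receptors and lower for 2, beside 15.9% and 9.9% of all genes. Octbeta2R had 2.82, 4.89 and 3.52 CPM in Lawf1, against 733, 686 and 603 CPM in Lawf2, a log2 fold change of -7.49 ± 0.31 (edgeR adjusted p = 4.89e-24). Octbeta1R had 17.3, 10.2 and 16.8 CPM in Lawf1, against 339, 395 and 368 CPM in Lawf2, a log2 fold change of -4.63 ± 0.61 (adjusted p = 6.52e-08). Oct-TyrR went the other way, with 82.1, 104 and 68.1 CPM in Lawf1, against 0.952, 1.06 and 0.0440 CPM in Lawf2, a log2 fold change of 6.92 ± 0.996 (adjusted p = 3.98e-07). Octalpha2R was higher in Lawf1 by 3.71 ± 0.32 (adjusted p = 2.77e-13) and Oamb by 2.23 ± 0.41 (adjusted p = 2.05e-05). The 2 types thus differed in 5 of 8 receptors, with no overlap between their libraries in any of the 5.

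Tm5ab and Tm5c, types of the colour pathway, differed in 6 receptors, 3 higher and 3 lower in Tm5ab, beside 4.51% and 5.63% of all genes. Octbeta3R had 535, 497 and 441 CPM in Tm5ab, against 12.8, 13.0 and 17.0 CPM in Tm5c, a log2 fold change of 5.10 ± 0.44 (edgeR adjusted p = 1.34e-12). Octalpha2R had 125, 140.1 and 122 CPM in Tm5ab, against 12.8, 9.84 and 10.7 CPM in Tm5c, a log2 fold change of 3.55 ± 0.32 (adjusted p = 4.32e-12). Octbeta2R was higher in Tm5ab by 1.49 ± 0.24 (adjusted p = 5.41e-06). Oct-TyrR had 13.5, 9.22 and 13.7 CPM in Tm5ab, against 355, 237.6 and 218 CPM in Tm5c, a log2 fold change of -4.48 ± 0.85 (adjusted p = 0.000168). TyrRII was lower in Tm5ab at -4.43 ± 0.98 (adjusted p = 0.000895), and so was Oamb at -2.28 ± 0.41 (adjusted p = 5.64e-05). TyrR had a log2 fold change of -2.41 ± 0.92, which did not pass (adjusted p = 0.0731), although its libraries did not overlap.

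C3 and C2 were alike in being led by Octbeta1R, and differed in 3 other receptors, 2 higher and 1 lower in C3, beside 3.77% and 4.11% of all genes. Octalpha2R had 6.88, 11.3 and 6.63 CPM in C3, against 132, 159 and 136 CPM in C2, a log2 fold change of -4.10 ± 0.33 (edgeR adjusted p = 4.31e-14). Octbeta2R had 279, 237 and 243 CPM in C3, against 117, 114.5 and 114.6 CPM in C2, a log2 fold change of 1.13 ± 0.23 (adjusted p = 0.000379). Oamb was low in both and higher in C3 by 2.02 ± 0.46 (adjusted p = 0.00127). For Octbeta1R itself all C3 libraries lay above all C2 libraries, but the log2 fold change of 0.57 ± 0.52 did not pass (adjusted p = 0.606). That test uses spread pooled over all groups, not that of C3 and C2 alone.

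T2 and T3 differed in 4 receptors by edgeR, all higher in T2, beside 17.8% of all genes higher and 29.9% lower. None was lower by edgeR or DESeq2, and 0 were lower at an unadjusted p under 0.05. Octbeta1R had 25.1, 59.8 and 47.7 CPM in T2, against 7.19, 2.51 and 3.45 CPM in T3, a log2 fold change of 3.26 ± 0.63 (adjusted p = 2.07e-05). The other 3 depended on T2 libraries. Oct-TyrR had a log2 fold change of 4.72 ± 1.07 (adjusted p = 0.000227) that was 2.58 without T2 library 3 (adjusted p = 0.0323). Oamb had 1.68 ± 0.41 (adjusted p = 0.000572), and 1.08 without T2 library 3 (adjusted p = 0.0272). Octbeta3R had 1.40 ± 0.37 (adjusted p = 0.00136), and 0.78 without T2 library 1, where the call was lost (adjusted p = 0.118). TyrR, at 1.18 ± 0.89 (edgeR adjusted p = 0.289), and Octalpha2R, at -0.35 ± 0.29 (adjusted p = 0.3345), did not pass. For both, the libraries of T2 and T3 did not overlap. The shallow depth and length trend of T2 move with these results, and their part was not tested.

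**Figure D5:**
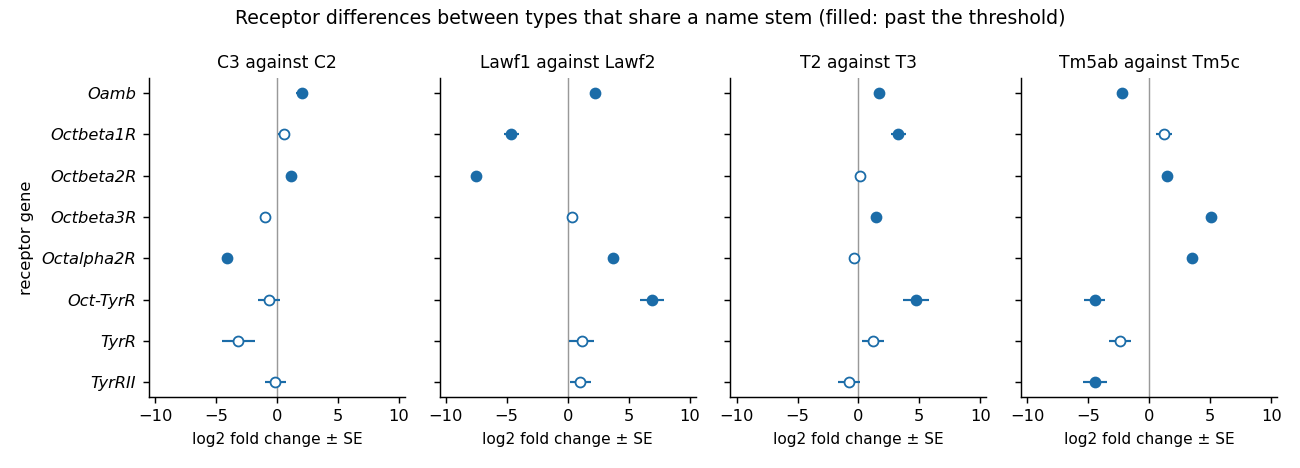
Log2 fold change of each receptor gene between types that share a name stem, first-named type over second. Bars are approximate standard errors, derived from the fold change and edgeR's F statistic. Filled points passed an adjusted p of 0.05 and a log2 fold change of 1. Lawf1 lies far below Lawf2 for Octbeta2R (-7.49), and Tm5ab far above Tm5c for Octbeta3R (5.10).

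The mixture of T1 and Tm1 was compared with T1. Octbeta2R had 759.7, 638 and 386 CPM in the mixture, against 2812, 2845 and 2904 CPM in T1, a log2 fold change of -2.26 ± 0.24 (edgeR adjusted p = 1.35e-10). The other changes were upwards: 6 receptors were higher in the mixture and 1 was lower, beside 13.2% and 5.55% of all genes. Octalpha2R had 276, 227 and 514 CPM in the mixture, against 0.293, 1.24 and 3.18 CPM in T1, a log2 fold change of 7.73 ± 0.40 (adjusted p = 1.60e-21). Octbeta1R had 1501, 1336 and 1010 CPM in the mixture, against 2.54, 14.7 and 18.4 CPM in T1, a log2 fold change of 6.75 ± 0.67 (adjusted p = 7.83e-11). Oamb was higher by 5.20 ± 0.47 (adjusted p = 2.89e-12), Octbeta3R by 3.44 ± 0.40 (adjusted p = 2.23e-09) and Oct-TyrR by 3.87 ± 0.86 (adjusted p = 0.000576). The Oct-TyrR value was 6.10 without T1 library 3. The call of TyrR (3.56 ± 1.28, adjusted p = 0.0359) was lost without T1 library 2 (3.06, adjusted p = 0.128) or 3 (2.96, adjusted p = 0.137) or mixture library 2 (3.14, adjusted p = 0.102), and its value was 6.65 without T1 library 1.

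Markers of other types also differed between the mixture and T1. The Mi1 marker bsh had 151, 134 and 82.7 CPM in the mixture, against 0.975, 2.27 and 0 CPM in T1, and Gad1 had 581, 588 and 223 CPM in the mixture, against 10.04, 42.2 and 23.2 CPM in T1. The summed level of 4 hemocyte markers was 358 to 820 CPM in the mixture, against 79.6 to 91.9 CPM in T1, and that of 9 glia markers 874 to 4721 CPM in the mixture, against 28830 to 37420 CPM in T1. Their part in the differences of the receptors was not tested, and the mixture values are not levels of Tm1 alone.

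The mean of the single types was compared with sorted neurons as a whole. None of the receptors was higher and 6 were lower by edgeR, beside 2.67% and 12.4% of all genes, and DESeq2 gave the same counts. All 8 log2 fold changes were negative, so 0 were higher at an unadjusted p under 0.05. This comparison uses the geometric mean, which is low for a gene that is near 0 in many types, and the arithmetic means ran the other way for most receptors. Octbeta1R averaged 568 CPM over the 17 types and 401 ± 35 CPM in sorted neurons, while its log2 fold change was -2.88 ± 0.28 (edgeR adjusted p = 9.45e-11). Octbeta2R averaged 352 CPM over the types and 220.3 ± 6.6 CPM in sorted neurons, with a log2 fold change of -1.04 ± 0.15 (adjusted p = 4.50e-07). Oct-TyrR was lower on both scales, at 26.5 CPM over the types and 33.4 ± 2.9 CPM in sorted neurons. The highest single type exceeded sorted neurons 13.2 times for Oamb, 13.0 times for Octbeta2R and 5.38 times for Octalpha2R.

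Genes that make and transport the amines were mostly scarce in these types. The tyrosine decarboxylase genes Tdc1 and Tdc2, whose products make tyramine, stood at no more than 2.86 and 3.86 CPM in any type. Tbh, the octopamine synthesis gene, had 425 ± 103 CPM in T3 and 324 ± 160 CPM in T2, and reached 10 CPM in 7 types. The vesicular monoamine transporter gene Vmat had 2184 ± 1482 CPM in Dm2 and at most 7.44 CPM in the other types. The gene prt, next in range in this group, was highest in Mi1 with 7.01 ± 6.8 CPM. Of the 5 genes in this group 4 varied between types by the F test, which called 91.6% of all genes, and Tdc2 did not pass (edgeR adjusted p = 0.341).

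Genes of the signalling steps behind the receptors were then counted by the F test, which called 91.6% of all genes. All 10 G protein subunit genes tested, of 11 listed, varied, and so did all 14 tested of 15 listed genes of the cAMP branch, all 7 of the calcium branch and all 7 of receptor desensitisation. The last 7 include Arr1 and Arr2, which were near 0 throughout, with means of at most 0.76 and 0.70 CPM in any type. The median range of log2(CPM + 1) was 5.06 in the cAMP branch, 5.67 in the calcium branch, 2.76 in the G protein subunits and 2.70 in the desensitisation genes, against 9.23 for the receptors. In the cAMP branch, Pde1c, a cyclic nucleotide phosphodiesterase, had 9260 ± 2210 CPM in T2 and 1041 ± 127 CPM in T3 and 1.34 ± 2.0 CPM in C3. Pka-C3, a protein kinase related to PKA, had 2375 ± 339 CPM in C3, 995 ± 61 CPM in Mi1 and 0.295 ± 0.31 CPM in T3. C3 and Mi1 were among the 6 types led by Octbeta1R, but Pka-C3 reached 10 CPM in only 5 types, and a link was not tested. Epac, a cAMP-binding exchange factor, had 3436 ± 897 CPM in T2 and 2796 ± 46 CPM in Mi1.

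In the calcium branch, Itpr, the receptor for inositol trisphosphate, had 335 ± 24 CPM in C2 and 186 ± 21 CPM in C3, where Oamb was scarce. The phospholipase gene Plc21C had 2463 ± 240 CPM in Lawf1, the type with the highest Oamb. It had 2008 ± 489 CPM in Dm2, where Oamb stood at 67.4 CPM, and 47.1 ± 6.8 CPM in T1. Pkc53E, a protein kinase C gene, had 623 ± 31 CPM in Tm5c and 419 ± 29 CPM in Lawf1. Among the G protein genes, Ggamma30A ranged widest, with 13590 ± 2099 CPM in Tm3 and 170 ± 11 CPM in T3, followed by Gbeta5 with 440.0 ± 13 CPM in Dm12 and Galphao with 3948 ± 101 CPM in T1. Of the desensitisation genes, the receptor kinase genes Gprk2 and Gprk1 peaked at 187 ± 19 CPM in Lawf2 and 1880 ± 354 CPM in T2, and the arrestin gene krz at 139 ± 23 CPM in T2. All 9 other monoamine receptors varied too, beside the 91.6% of all genes called by the F test, led by the serotonin receptor gene 5-HT1A with 1275 ± 57 CPM in C2, the dopamine receptor gene Dop2R with 2106 ± 1271 CPM in Tm3 and 5-HT7 with 435 ± 57 CPM in T2.

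The genes whose pattern was most like each receptor were ranked by Pearson's r of log2(mean CPM + 1) over the 17 types, among 6757 genes that reached 20 CPM in a type. For Octbeta1R this was CG5346 (r = 0.91), with 71.0 ± 12 CPM in C3, 46.5 ± 7.0 CPM in C2 and 21.6 ± 5.7 CPM in Mi1. CG5346 lies on the opposite strand of 3R from 22520087 to 22528663, so that its end is 8 bases from the end of Octbeta1R, and reads past that end cannot be assigned to a strand with these kits. The next genes for Octbeta1R were byn (0.77) and Spn42Da (0.73). TyrR was most like NPFR, a neuropeptide F receptor gene (0.89), frma (0.88) and Cdep (0.86). Oamb was most like CG15312 (0.86), CG8641 (0.80) and jef (0.78), and Octbeta3R like CG15803 (0.83), CG4004 (0.82) and Pde1c (0.82). Oct-TyrR was most like kuz (0.79), sd (0.74) and CG13004 (0.73), Octbeta2R like Sfmbt (0.78), elm (0.74) and Ppa (0.71), and Octalpha2R like CG7668 (0.76), Pdfr (0.75) and spri (0.72). TyrRII was most like Cad87A (0.79), TyrR (0.78) and alpha-Est9 (0.70). Without T2, the 3 named genes stayed in the top 3 for Octbeta3R and TyrR, 2 did for Oamb, Octbeta1R, Oct-TyrR and TyrRII, 1 did for Octbeta2R and none did for Octalpha2R. With a pseudocount of 0.1 CPM in place of 1, all 3 stayed for Oamb, Octbeta3R, Octalpha2R and TyrR, 2 for Octbeta1R, Octbeta2R and TyrRII, and 1 for Oct-TyrR.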

How the data were processed

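The authors deposited raw counts of reads, without normalization, for 17558 FlyBase gene identifiers in 57 libraries, with 5 summary lines that name no gene. Per the submitters' processing notes, Trimmomatic 0.32, STAR 2.5.2 and HTSeq 0.6.1 were used with build BDGP6. The strand setting and the annotation behind the counts are not given in the sources used here. Per the labels' protocols, SMART-Seq v4 was used for cDNA and Nextera XT for libraries. Reads assigned to no gene were 40.5 to 49.2% per library, ambiguous ones 1.21% and multiply aligned ones 9.84% at the median, relative to the sum of all lines, and stayed out of library sizes.

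Counts were fitted with edgeR 4.0.16 in R 4.3.3: filterByExpr (12569 genes kept), TMM scaling, 1 coefficient per group over all 57 libraries and a robust quasi-likelihood fit. The code was tried on simulated counts with fold changes set in Dm12 only and the same spread for all genes. All other groups had equal means there, so it did not cover groups that differ as widely as the real ones. Calls needed a Benjamini-Hochberg adjusted p under 0.05 and an absolute log2 fold change of at least 1, except in the F test. CPM uses TMM-scaled library sizes, and errors are SD over 3 libraries or SE. The SE is the absolute log2 fold change divided by the square root of the test's F statistic. It is approximate, and unreliable where the fold change is near 0. A group at 0 allows 3 reads, equal to 0.47 CPM in T2 and to 0.068 CPM or less elsewhere, for counting error only. Each library was used as a unit. The chi-square of any pair within a group, divided by its degrees of freedom, was 11.6 to 270.1, above counting noise. That spread does not show whether the libraries came from separate samples. Library numbers were not treated as pairing the samples. Exon lengths came from Ensembl's annotation. The trend of T2 was a lowess fit of log2 fold change on exon length.

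Named genes were all 8 receptors, the 3 genes most like each receptor, and in each pathway list the 3 genes with the largest range. Tdc1, Tdc2, Arr1 and Arr2 were chosen in addition after their values were seen. The members and lists were chosen with earlier results of these data known. Alternatives were DESeq2 1.42.0, its size factors, no filter on low counts, library number as a block, leaving out T2 and leaving out each library. Receptor sequences were not used here.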

Additional observations from a re-analysis of the deposited data

How the results depend on the processing

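The total counts of receptors called over the single types kept within 1.5 times of the values given under every alternative tried, and counts in single comparisons did not all do so. DESeq2 called 2 receptors lower in C3 than in C2 and 2 lower in Tm5ab, where edgeR called 1 each, and 3 higher in Tm3, where edgeR called 5. In Tm5ab 2 were also lower with DESeq2 size factors and with no filter on low counts. Dm2 had 0 lower without the T2 libraries. The number of receptor and type pairs at or above the level limit, 82 at 10 CPM, was 51 at 100 CPM, 114 at 1 CPM, 76 where every library had to reach 10 CPM and 80 to 84 with a library number left out. Each library was also left out in turn, and was read only in comparisons that name its group, the comparison with sorted neurons and the F test. In totals over single types, the other types kept their main values. This gave 8 receptors varying in every case, and 52 to 54 calls higher and 39 to 42 lower for single types. C3 against C2 had 2 lower without C2 library 3 and 1 otherwise. The mixture against T1 had 5 or 6 higher and 1 lower, and T2 against T3 had 3 or 4 higher and 0 lower. The types against sorted neurons had 6 lower. Within single types, the calls lower were 2 in Dm2 without library 1 and 0 without library 3, 0 in Tm3 without library 2 or 3 and 2 in Tm5ab without library 2, each against 1, and 2 in Tm9 without library 2 or 3 and 2 in Tm2 without library 2, each against 4. Of 126 calls for single receptors, 18 were lost without some library, 17 by adjusted p and 1 by the fold limit alone, and 13 of the 18 were of TyrRII, TyrR or Oct-TyrR. Oct-TyrR in T2 changed direction, with -0.29 without library 3 and 2.61 without library 2. Of 58 differences that were not called, 14 changed sign under some alternative, with values of at most 0.60 after the change, and 13 gained a call. With library number as a block, 54 calls were higher and 44 lower for single types, and no call in the main text was lost. Same-numbered libraries had a median correlation of deviations of 0.0022 and a lowest of -0.718, with 96 of 513 pairs over 0.1. By this measure 25 libraries were closest to those of their own number. Whether the numbers mark shared samples is not settled by these values. Scaling by DESeq2 size factors moved the median log2 fold change of all genes by -0.11 in C3 against C2 and by -0.12 in Tm9, and by under 0.1 elsewhere. DESeq2 called 820 genes lower in the types than in sorted neurons, where edgeR called 1553. The length trend took the T2 value of Octbeta2R, not called at 0.64, to -0.084. Depth limits T2 most, where library 3 held 0.602 M reads.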
